A study of Mus musculus with 12 samples.

Results

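The 6 genes described here are Id1 (ENSMUSG00000042745), Id2 (ENSMUSG00000020644), Id3 (ENSMUSG00000007872), Tcf3 (ENSMUSG00000020167), Tcf4 (ENSMUSG00000053477) and Tcf12 (ENSMUSG00000032228), chosen by name among the 33696 genes listed in the files. E proteins, encoded by Tcf3, Tcf4 and Tcf12, are basic helix-loop-helix transcription factors that bind E-boxes in DNA as dimers. Id proteins keep the helix-loop-helix but have no basic region, so that a dimer of an Id protein with an E protein cannot bind DNA. In the thymus E proteins drive early T cell genes such as the Rag genes and Ptcra, signals of the T cell receptor raise Id3 through Egr factors, and Id2 is known for its part in innate lymphoid and other innate-like lymphocytes.

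The study sorted γδ T cells from the spleen, γδ T cells from the thymus, and CD4-negative CD8-negative thymocytes of the DN1, DN2 and DN3 stages as 1 pool, from adult WT and GFI1 KO mice kept on the C57BL6/J background. GFI1 is a DNA-binding repressor, and the KO is germline, so every cell type of the animal carries it. WT and KO cells were stained with different hashtag antibodies and loaded together, which gave 6 gene expression samples, 6 hashtag samples and 12 demultiplexed libraries, with 2 of each genotype in each of 3 compartments. The thymic sorts were made from the same animals, and neither the number of mice behind a library nor whether the duplicates came from different animals is given in the sources used here, so that p-values measure the spread between libraries only. A library is called KO or WT below by its hashtag label.

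After a filter on depth and mitochondrial counts, 96911 of 97404 cell barcodes were used, 6795 to 11679 a library, with median depths of 4947 to 6853 UMIs (unique molecular identifiers, 1 per counted RNA molecule) a cell. Gfi1 itself gave no check of the labels by a lower level, since the KO to WT ratio of its CPM lay between 1.01 and 1.76 in all 6 pools, and whether the counted 3′ end lies in the deleted part is not given in the sources used here. CPM is the number of UMIs of a gene per 1000000 UMIs of the library. All 3 Cd3 genes were at 456 CPM or more in every library. The γδ T libraries held 1233 to 2051 CPM of Trdc and the DN1-DN3 libraries 126 to 199 CPM, the latter with 203 to 318 CPM of Rag1. Cells with at least 2 genes of a B cell, plasmacytoid dendritic or myeloid list numbered 5 to 79 a library, and those with B cell markers 30 and 68 in the DN1-DN3 libraries labelled KO. Xist was at most 0.374 CPM in spleen and at least 739 CPM in the thymus, while Ddx3y of the Y chromosome was counted everywhere, so that tissue and the sex of the donor mice cannot be told apart in comparisons of spleen with thymus. In DN1-DN3 libraries the summed level of the 4 NK and ILC markers was 18.7 to 23.7 CPM with the label KO and 9.33 to 13.6 CPM with the label WT, that of 6 B cell markers 24.6 to 38.8 and 22.5 to 24.0 CPM, that of the myeloid markers 142 to 158 and 98.6 to 101.5 CPM, that of the αβ T markers 1989 to 2029 and 2082 to 2159 CPM, and that of the 6 plasmacytoid dendritic markers 36.4 to 59.2 and 92.4 to 95.6 CPM, and their part in the results was not tested. Stage markers moved there as well, those of DN1 and DN2 at 70.6 to 154 CPM with the label KO and 34.5 to 46.3 CPM with the label WT, those of DN3 at 1139 to 1430.5 and 1616 to 1634 CPM, and those of γδ T cells at 418 to 436 and 568 to 572 CPM, and their part was not tested either. Kit, of the DN1 and DN2 list, went the other way from its list, at 16.2 to 16.8 CPM with the label KO and 22.3 to 29.4 CPM with the label WT. In the same libraries Ddx3y was at 11.6 to 14.2 CPM with the label KO and 26.0 to 28.0 CPM with the label WT. Xist was there at 1354 to 1600 CPM with the label KO and 1191 to 1488 CPM with the label WT, which overlap. Genotype and a differing share of male cells cannot be told apart in the DN1-DN3 comparisons of KO with WT. No barcode was shared between the KO and WT libraries of 1 pool, and at most 34 were shared between libraries of different pools.

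Since Id2 and Id3 moved in opposite directions in γδ T cells, the 250 bases before their RefSeq transcription starts are shown first (assembly GRCm38.p6, whereas the counts were made on GRCm39). The Id2 window is chr12:25096093-25096342 on the minus strand and the Id3 window chr4:136143572-136143821 on the plus strand. Capitals mark the E-box letters CANNTG, which read the same on both strands, and AATCA, the core of the GFI1 motif, was searched on both strands as well.
Id2: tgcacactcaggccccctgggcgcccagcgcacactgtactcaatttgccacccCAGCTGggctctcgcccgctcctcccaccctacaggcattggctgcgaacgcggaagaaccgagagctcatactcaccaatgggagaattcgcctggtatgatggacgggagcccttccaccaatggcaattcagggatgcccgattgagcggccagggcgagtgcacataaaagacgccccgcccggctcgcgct
Id3: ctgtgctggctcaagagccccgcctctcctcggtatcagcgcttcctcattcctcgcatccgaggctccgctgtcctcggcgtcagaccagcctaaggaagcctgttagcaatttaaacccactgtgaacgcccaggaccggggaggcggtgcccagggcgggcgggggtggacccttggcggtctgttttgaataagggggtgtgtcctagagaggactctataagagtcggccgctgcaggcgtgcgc
The Id2 window holds 1 E-box and the Id3 window none, and AATCA stands in neither of them. Windows of Id1 and Tcf4 were not used here. Of the windows of Tcf3 and Tcf12, AATCA stands in that of Tcf3 and in 1 of 3 of Tcf12, and an E-box in that of Tcf3 and in the other 2 of Tcf12. For comparison, 66.2% of 32851 promoter windows of this length hold an E-box and 33.7% hold AATCA. These letters describe the windows only.

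Id2 was higher with the label KO in every compartment. In spleen its level was 1394 and 1019 CPM in the 2 libraries labelled KO and 253 and 199.6 CPM in those labelled WT. The thymic γδ T libraries held 824 and 759.6 CPM with the label KO and 98.2 and 102 CPM with the label WT. DN1-DN3 libraries held 425 and 171 CPM with the label KO, and 47.0 and 46.3 CPM with the label WT. All KO values lay above all WT values of the same compartment. The DN1-DN3 libraries labelled KO differed from each other by a larger ratio than the other pairs did. The log2 differences, from a fit of all 12 libraries, were 2.52 in spleen (edgeR adjusted p = 0.000134, SE 0.33), 3.10 in thymic γδ T cells (adjusted p = 5.96e-05, SE 0.34) and 2.65 in DN1-DN3 cells (adjusted p = 0.000527, SE 0.33), which are folds of 5.72, 8.60 and 6.29. The DN1-DN3 value was 1.92 without KO replicate 1 and 3.10 without KO replicate 2, called both times. Id2 was thus called higher in each of the compartments, and the size of the difference was not itself called different between spleen and thymic γδ T cells (−0.59, SE 0.44, adjusted p = 0.351) or between thymic γδ T and DN1-DN3 cells (0.45, SE 0.44, adjusted p = 0.517). Without DN1-DN3 KO replicate 1 the latter was called (1.11, adjusted p = 0.00829), and without KO replicate 2 it was −0.06 (adjusted p = 0.901).

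Id3 went the other way in both γδ T compartments. Its level was 11.2 and 15.3 CPM in splenic libraries labelled KO and 225 and 282 CPM in those labelled WT. Thymic γδ T libraries labelled KO held 191 and 121 CPM and those labelled WT 542 and 556 CPM. Among DN1-DN3 cells the libraries labelled KO stood at 89.0 and 124 CPM and those labelled WT at 73.2 and 79.6 CPM. The genotypes did not overlap in any compartment, but KO lay below WT in the γδ T sorts and above it in the precursors. Id3 fell by 4.17 on the log2 scale in spleen (adjusted p = 1.42e-06, SE 0.27), 17.9-fold, and by 1.70 in thymic γδ T cells (adjusted p = 0.000282, SE 0.24), 3.25-fold, while the difference of 0.49 in DN1-DN3 cells was not called (adjusted p = 0.168, SE 0.24). The splenic fall was larger than the thymic one by 2.46 (adjusted p = 0.000753, SE 0.34), and the thymic γδ T effect lay 2.19 below that in DN1-DN3 cells (adjusted p = 0.00206, SE 0.34).

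Id1, which BMP signals induce in many tissues, was close to the limit of detection. In γδ T libraries it had 5 to 33 UMIs in all, 0.119 to 0.460 CPM, and was not called between genotypes in spleen (−0.37, SE 0.60, adjusted p = 0.636) or thymus (−1.01, SE 0.58, adjusted p = 0.171). DN1-DN3 libraries labelled KO held 101 and 212 UMIs, or 2.16 and 3.77 CPM, and those labelled WT 28 and 38 UMIs, or 0.453 and 0.610 CPM. The groups did not overlap in DN1-DN3 cells, and Id1 rose by 2.49 (adjusted p = 0.00251, SE 0.43), an effect 3.50 above that in thymic γδ T cells (adjusted p = 0.00694, SE 0.71). Id4, the remaining Id gene, had no UMI in 96911 cells, which allows a share of up to 0.0031% of cells with a UMI, for counting error only.

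The E protein genes Tcf12 and Tcf4 were lower with the label KO in γδ T cells and not in precursors. Tcf12, which encodes HEB, was at 242 and 271 CPM in splenic libraries labelled KO and 601 and 661 CPM in those labelled WT. In thymic γδ T libraries it was at 541 and 453 CPM with the label KO and 999.6 and 937 CPM with the label WT. DN1-DN3 libraries held 1236 and 1202 CPM with the label KO and 1233 and 1024 CPM with the label WT, values that overlapped. Tcf12 fell by 1.20 in spleen (adjusted p = 1.19e-05, SE 0.11) and by 0.84 in thymic γδ T cells (adjusted p = 0.000168, SE 0.11), with 0.11 in DN1-DN3 cells (adjusted p = 0.498, SE 0.11). Tcf4 had 23.5 and 21.8 CPM in spleen with the label KO and 59.8 and 48.8 CPM with the label WT, and 54.9 and 38.7 CPM against 139.7 and 131 CPM in thymic γδ T libraries. Among DN1-DN3 libraries Tcf4 was at 224 and 234 CPM with the label KO and at 208 and 174 CPM with the label WT. Tcf4 fell by 1.17 in spleen (adjusted p = 0.000106, SE 0.15) and by 1.42 in thymic γδ T cells (adjusted p = 4.33e-05, SE 0.15), against 0.27 in DN1-DN3 cells (adjusted p = 0.214, SE 0.15).

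Tcf3, the remaining E protein gene, was lower with the label KO in both γδ T sorts. Its splenic level was 39.2 and 42.2 CPM with the label KO and 59.4 and 65.0 CPM with the label WT. Thymic γδ T libraries held 48.5 and 44.2 CPM against 88.6 and 92.4 CPM, and DN1-DN3 libraries 78.8 and 94.4 CPM against 111 and 106 CPM. KO lay below WT without overlap in all 3 compartments. The fall was 0.52 in spleen (adjusted p = 0.00298, SE 0.11) and 0.84 in thymic γδ T cells (adjusted p = 0.000169, SE 0.11), and −0.32 in DN1-DN3 cells was not called (adjusted p = 0.0650, SE 0.11) except with the pool as a block (−0.33, SE 0.09, adjusted p = 0.0359) or without DN1-DN3 KO replicate 2 (−0.56, adjusted p = 0.000998). The effects in thymic γδ T cells lay below those in DN1-DN3 cells by 0.52 for Tcf3 (adjusted p = 0.0395, SE 0.16), 1.69 for Tcf4 (adjusted p = 0.000642, SE 0.21) and 0.96 for Tcf12 (adjusted p = 0.00268, SE 0.16). That of Tcf3 missed the threshold when any 1 of the thymic γδ T libraries, DN1-DN3 KO replicate 2 or either DN1-DN3 WT library was left out, with adjusted p between 0.0511 and 0.124.

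**Figure D1:**
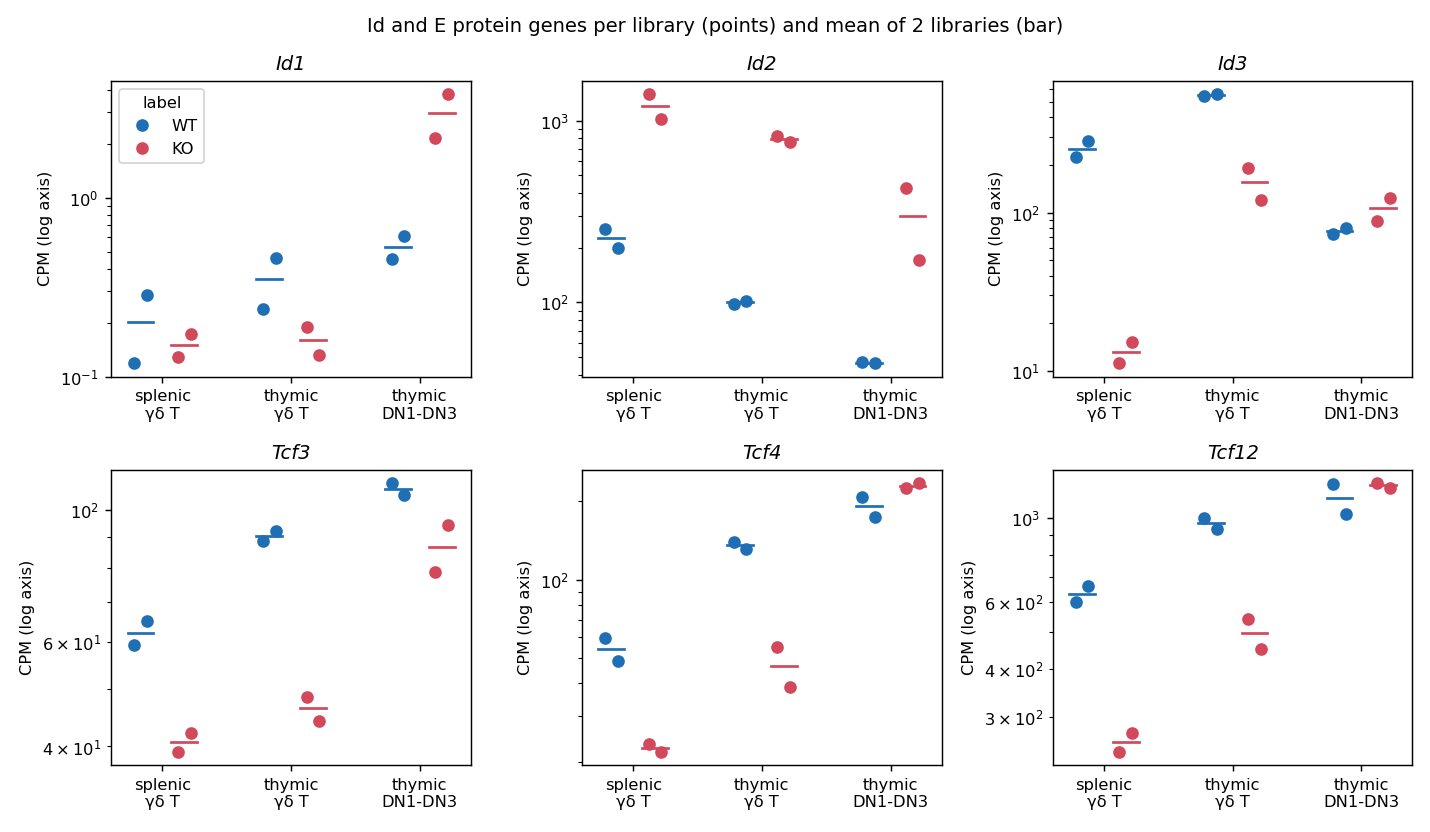
Level of each gene in CPM on a log axis in the 12 libraries, by compartment and genotype label. Points are libraries and bars the mean of 2 libraries. In both γδ T sorts the KO points of Id2 lie above the WT points and those of Id3, Tcf3, Tcf4 and Tcf12 below, for example 11.2 and 15.3 CPM of Id3 against 225 and 282 CPM in spleen.

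Counts of members have to be read against how many genes differed. Among 14911 genes tested, 54.8% were called between KO and WT in spleen, 49.7% in thymic γδ T cells and 23.0% in DN1-DN3 cells. Of the 6 members 5 were called in spleen and 5 in thymic γδ T cells, each time with Id2 higher and Id3, Tcf3, Tcf4 and Tcf12 lower, and 2 in DN1-DN3 cells, Id1 and Id2, both higher. For the difference of effects between spleen and thymic γδ T cells, 29.5% of genes and 1 member, Id3, were called. Between thymic γδ T and DN1-DN3 cells 21.8% of genes and 5 members were called, every one with the lower effect in γδ T cells, and Id2 was the one not called.

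Markers of other cells moved with the genotype label in the γδ T sorts too. The summed level of the 6 plasmacytoid dendritic markers, a cell type that uses Tcf4, was 8.75 to 9.87 CPM with the label KO against 209.5 to 220.1 CPM with the label WT in spleen, and 156 to 234 against 845 to 984 CPM in thymic γδ T cells, the same direction as Tcf4. Most of that sum was Ccr9, a chemokine receptor that T cells also carry, at 7.07 and 5.99 against 171 and 160 CPM in spleen, while the defining markers Klk1 and Siglech were at 0 and at most 0.21 CPM. The NK and ILC markers were at 11.4 to 11.8 against 105.8 to 123.2 CPM in spleen and 4.61 to 15.2 against 14.8 to 18.6 CPM in thymic γδ T cells, where the ranges overlapped. The αβ T markers were at 993 to 1031 against 1745 to 1806 CPM in spleen and 1302 to 1531 against 3173 to 3259 CPM in thymic γδ T cells, and the myeloid markers at 316 to 339 against 119.8 to 135 CPM and 179.9 to 195 against 106 to 112 CPM. The 6 B cell markers were at 52.7 to 52.9 against 26.8 to 30.8 CPM in spleen and 26.9 against 18.7 to 19.0 CPM in thymic γδ T cells, most of it Cd79b in spleen (50.9 and 50.8 against 27.9 and 23.7 CPM). Markers of DN1 and DN2 cells were at 519 to 553 against 108 to 122 CPM in spleen and 302.8 to 426 against 63.4 to 64.3 CPM in thymic γδ T cells, those of DN3 cells at 159 to 169.7 against 30.0 to 31.8 CPM and 146 to 167 against 146 to 183 CPM, and those of γδ T cells at 2867 to 3158 against 1585 to 1696 CPM and 2906 to 3062 against 1629 to 1693 CPM. Kit, of the DN1 and DN2 list, went the other way from its list. With the label KO against WT it was at 1.28 to 1.51 against 25.3 to 25.5 CPM in spleen. In thymic γδ T cells it was at 4.69 to 7.01 against 27.5 to 28.1 CPM. Of the DN3 list, Rag1 had no UMI in spleen and Ptcra was at 0.0288 to 0.0854 against 0.336 to 0.404 CPM. The part of these lists in the γδ T results was not tested.

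**Figure D2:**
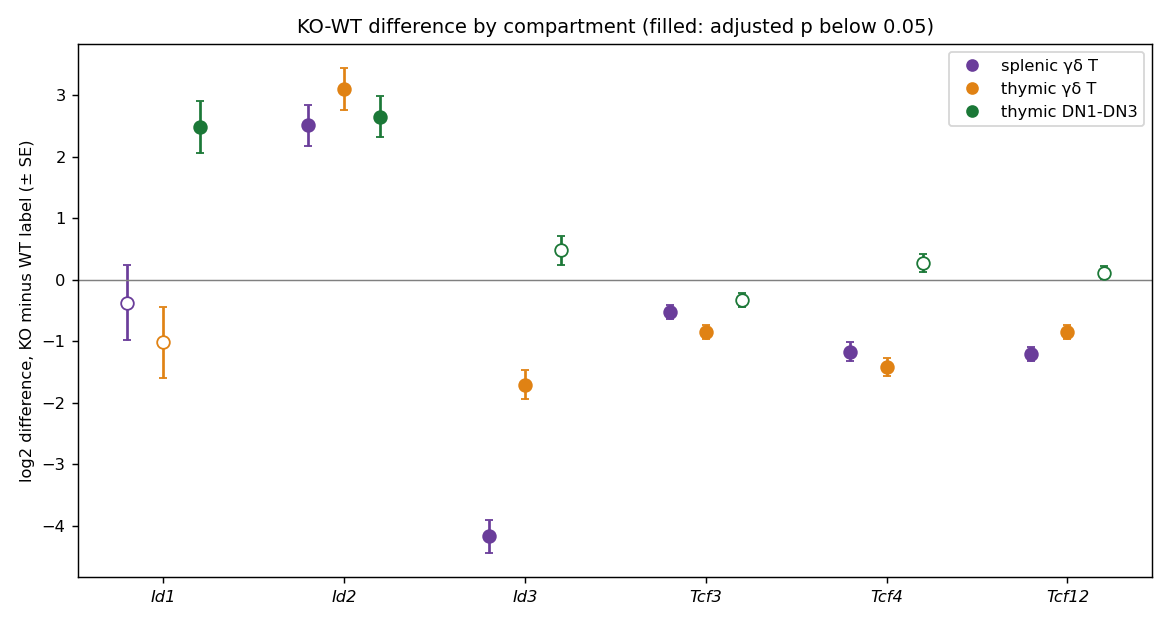
Log2 difference between the libraries labelled KO and WT for each gene with its approximate standard error (SE), by compartment. Filled points have an adjusted p below 0.05. Id2 is between 2.52 and 3.10 in all compartments, and Id3 runs from −4.17 in spleen to 0.49 in DN1-DN3 cells.

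The share of cells with a UMI depends on depth. In spleen 96.2% and 94.0% of cells labelled KO had an Id2 UMI against 37.8% and 37.0% with the label WT, and 4.45% and 7.20% had an Id3 UMI against 41.3% and 47.8%. Thinned to 2000 UMIs a cell, with 123 to 1190 shallower cells a library left out, the splenic Id2 shares were 86.4% and 79.2% against 25.2% and 23.0%. In thymic γδ T libraries 77.8% and 80.3% had an Id2 UMI with the label KO and 30.7% and 32.8% with the label WT. Most cells with an Id2 UMI and the label KO had no Id3 UMI. Cells with Id2 alone made up 92.3% and 87.4% of splenic cells labelled KO and 25.1% and 21.6% of those labelled WT, while cells with Id3 alone made up 0.550% and 0.668% against 28.6% and 32.4%. Both genes were found in 3.90% and 6.53% against 12.7% and 15.4%. In thymic γδ T libraries Id2 alone was seen in 57.9% and 67.2% of cells labelled KO and in 7.66% and 8.11% of those labelled WT, and Id3 alone in 10.8% and 7.71% against 49.4% and 49.9%. Among DN1-DN3 cells, 63.2% and 63.8% with the label WT had neither gene, against 34.2% and 42.7% with the label KO.

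**Figure D3:**
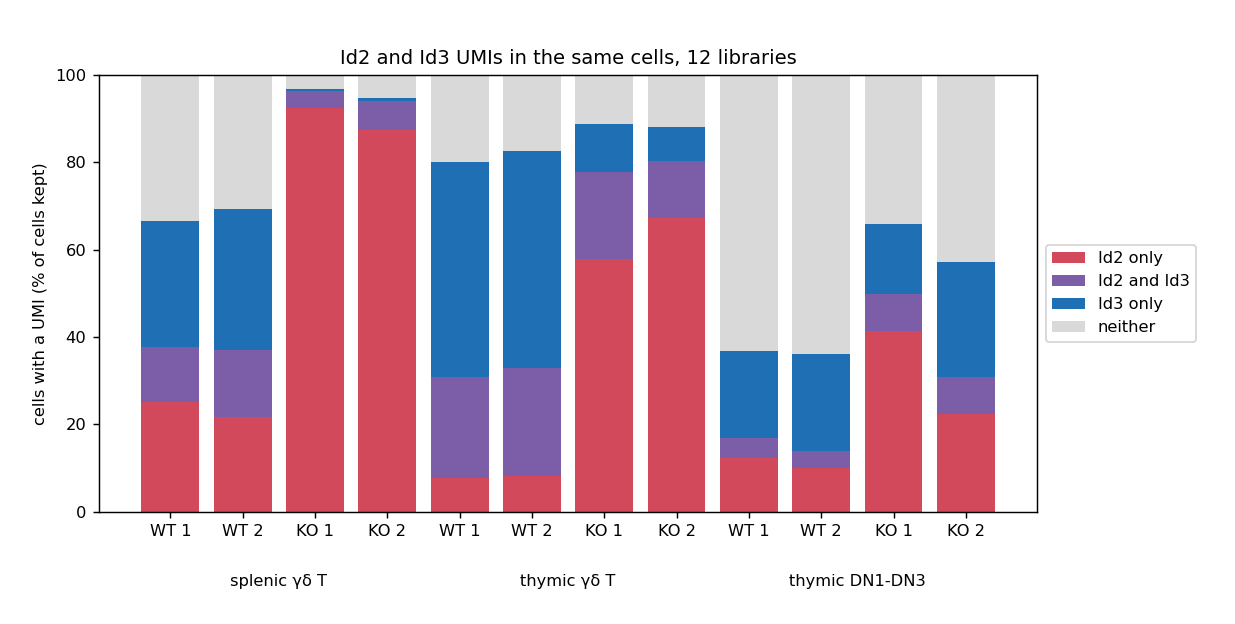
Share of the cells kept in each of the 12 libraries that had a UMI of Id2 only, of both Id2 and Id3, of Id3 only or of neither. Bars add to the whole library. In the splenic libraries labelled KO 92.3% and 87.4% of cells fall in the part with Id2 only.

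The order of the 6 groups differed between Id2 and the E protein genes. Id2 ranked from splenic KO (1207 CPM on average) through thymic γδ T KO (792), DN1-DN3 KO (298), splenic WT (226) and thymic γδ T WT (100.1) to DN1-DN3 WT (46.6), and DN1-DN3 KO and splenic WT overlapped. Id3 was highest in thymic γδ T WT (549 CPM) and lowest in splenic KO (13.2 CPM), with overlap between thymic γδ T KO and DN1-DN3 KO. Tcf12 ranked DN1-DN3 KO (1219 CPM), DN1-DN3 WT (1128), thymic γδ T WT (968), splenic WT (631), thymic γδ T KO (497) and splenic KO (257), and the DN1-DN3 groups overlapped. Tcf4 had the same order with overlap between splenic WT and thymic γδ T KO, and Tcf3 differed from it in placing DN1-DN3 WT first and DN1-DN3 KO below thymic γδ T WT, with which it overlapped. Id1 was highest in DN1-DN3 KO, and all lower neighbours overlapped.

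Compared between compartments, WT thymic γδ T cells were set against WT DN1-DN3 cells to show how the members differ between γδ T cells and precursors. Both thymic sorts came from the same animals, which no fit took into account. Of all genes 47.2% were called, and 3 members. Id3 was higher in γδ T cells by 2.86 (adjusted p = 1.98e-05, SE 0.25) and Id2 by 1.12 (adjusted p = 0.0156, SE 0.32), while Tcf4 was lower by a difference of −0.47 (adjusted p = 0.0233, SE 0.15). Without the DN1-DN3 cells that had a UMI of Il2rb or Trac, genes of innate-like and mature T cells, Id2 was higher in γδ T cells by 2.37 with the label WT (adjusted p = 0.000455, SE 0.34) and by 3.50 with the label KO (adjusted p = 2.88e-05, SE 0.35), and Tcf3 with the label WT was then called lower (−0.26, adjusted p = 0.0311, SE 0.09). Without 1 of the libraries the calls of Id2 (adjusted p up to 0.0778) and of Tcf4 (up to 0.133) were lost. With the label KO 57.3% of genes and all 6 members were called. Id2 was higher in γδ T cells by 1.57 (adjusted p = 0.00213, SE 0.32) and Id3 by 0.68 (adjusted p = 0.0324, SE 0.24), and Id1 (−4.07, SE 0.52), Tcf4 (−2.16, SE 0.15), Tcf12 (−1.15, SE 0.11) and Tcf3 (−0.77, SE 0.11) were lower, with adjusted p between 5.14e-06 and 0.000285. The call of Id3 was lost without DN1-DN3 KO replicate 1 (0.35, adjusted p = 0.287) and without thymic γδ T KO replicate 1 (0.36, adjusted p = 0.271).

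Splenic γδ T cells were then compared with thymic ones. With the label WT 48.8% of genes and 5 members were called, with Id2 higher in spleen by 1.25 (adjusted p = 0.00905, SE 0.32) and Id3 (−1.03, SE 0.24), Tcf3 (−0.46, SE 0.11), Tcf4 (−1.24, SE 0.15) and Tcf12 (−0.54, SE 0.11) lower. Without splenic WT replicate 1 only 2 members were called. With the label KO 36.6% of genes and 3 members were called, all lower in spleen, namely Id3 (−3.50, SE 0.26, adjusted p = 9.76e-06), Tcf4 (−0.99, SE 0.15, adjusted p = 0.000661) and Tcf12 (−0.90, SE 0.11, adjusted p = 0.000193). The difference of Id2 was 0.66 (adjusted p = 0.127, SE 0.31).

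Within the DN1-DN3 sort, 2 classes of cells were set apart. The Kit class had a Kit UMI and under 2 Ptcra UMIs, the Ptcra class at least 2 Ptcra UMIs and no Kit UMI. Kit encodes a receptor of early progenitors and Ptcra the α chain of the pre-T cell receptor. Kit was at 22.3 to 29.4 CPM in DN1-DN3 libraries labelled WT and at 27.5 to 28.1 CPM in thymic γδ T libraries labelled WT. Cells that met both limits were 1.93% and 3.78% with the label KO and 3.57% and 3.34% with the label WT. How well the classes separate DN1 and DN2 from DN3 cells was not tested. The Kit class held 460 and 486 cells with the label KO and 982 and 839 with the label WT, the Ptcra class 913 and 1982 against 1350 and 1776. Most cells met neither limit, 78.4% and 63.6% with the label KO and 64.1% and 61.7% with the label WT.

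Ptcra-class cells labelled KO had more Id1, Id2, Id3, Tcf4 and Tcf12 than those labelled WT. Id1 was at 6.73 and 7.87 CPM with the label KO, from 54 and 131 UMIs, and at 0.733 and 0.744 CPM with the label WT, from 10 and 12 UMIs. Id2 was at 67.2 and 44.9 CPM against 25.6 and 18.7 CPM, and Id3 at 100.3 and 104 CPM against 59.0 and 61.3 CPM. Tcf4 was at 324 and 288 CPM against 198 and 174 CPM, Tcf12 at 1729 and 1411 CPM against 1230 and 1070 CPM. None of these ranges overlapped. In a fit of the 8 class sums 14.7% of 12068 genes were called and 5 members, all higher, by 3.30 for Id1 (adjusted p = 9.8e-05, SE 0.39), 1.32 for Id2 (adjusted p = 0.0235, SE 0.30), 0.77 for Id3 (adjusted p = 0.00749, SE 0.16), 0.72 for Tcf4 (adjusted p = 0.00238, SE 0.13) and 0.45 for Tcf12 (adjusted p = 0.0445, SE 0.14). Tcf3 was at 98.6 and 100.1 CPM against 113 and 107 CPM (−0.14, SE 0.10, adjusted p = 0.402). Only 2 members were called without WT replicate 1 or without WT replicate 2, where Id2 was at 1.52 (adjusted p = 0.0632) and 1.15 (adjusted p = 0.176), and the call of Tcf12 was also lost without KO replicate 1 (0.37, adjusted p = 0.115).

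In Kit-class cells Id2 was at 131 and 69.2 CPM with the label KO and 23.8 and 16.9 CPM with the label WT, and Id3 at 105 and 134 CPM against 63.5 and 84.6 CPM. Here 8.92% of genes and 2 members were called, Id2 higher by 2.30 (adjusted p = 0.00420, SE 0.32) and Id3 by 0.73 (adjusted p = 0.0189, SE 0.17). With the pool as a block 5 members were called, the others being Id1 (2.11, SE 0.65, adjusted p = 0.0364), Tcf4 (0.35, SE 0.07, adjusted p = 0.00206) and Tcf12 (0.39, SE 0.06, adjusted p = 0.000183). The share of all genes called with the block is not given here, so nothing about the members is read from that count. Id1 rested on 5 and 12 UMIs with the label KO and 7 and 1 with the label WT, and without the block it ran from 1.43 to 3.81 when 1 library was left out (adjusted p from 0.0330 to 0.435). The call of Id3 was lost without KO replicate 2 (0.48, adjusted p = 0.125) or WT replicate 1 (0.48, adjusted p = 0.357), and that of Id2 without WT replicate 2 (2.11, adjusted p = 0.0516).

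The Kit and Ptcra classes were compared within each genotype. Both classes come from the same libraries, and the fit without a block leaves that pairing out. With the label WT 8.3% of genes and none of the members were called between the Ptcra and the Kit class by edgeR, with 0 members at an unadjusted p under 0.05 and 0 called by DESeq2. With the library as a block 2 were called there, Id3 lower in the Ptcra class (−0.25, SE 0.08, adjusted p = 0.0342) and Tcf12 higher (0.27, SE 0.05, adjusted p = 7.19e-05). With the label KO 13.1% of genes and 1 member were called, Id1, higher in the Ptcra class by 2.03 (SE 0.42, adjusted p = 0.00811). That call was just lost without KO replicate 2. With the library as a block 4 members were called, then also Id2 (−0.78, SE 0.09, adjusted p = 2.98e-07), Tcf4 (0.30, SE 0.06, adjusted p = 0.00123) and Tcf12 (0.33, SE 0.05, adjusted p = 5.77e-06). For the difference of the KO effect between these classes 0.141% of genes and none of the members were called, again with 0 members at an unadjusted p under 0.05 and 0 by DESeq2, but with the library as a block Id2 (−0.95, SE 0.14, adjusted p = 0.000162) and Tcf4 (0.37, SE 0.09, adjusted p = 0.0169) were. Without cells that had an Il2rb or Trac UMI, and with no block, Id2 differed by 0.06 between these classes with the label KO (adjusted p = 0.871) and the difference of its KO effect was −0.23 (adjusted p = 0.920, SE 0.26). Shares of all genes called with the library as a block are not given here, so nothing about the members is read from the block counts.

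Id2 in the DN1-DN3 sort lay mostly outside these classes. The cells of neither class held 93.9% and 86.6% of the Id2 UMIs of the libraries labelled KO, at 569 and 266 CPM, and 76.4% and 82.9% of those labelled WT, at 64.6 and 69.2 CPM. Cells with a UMI of Il2rb or Trac numbered 2932 and 1726 with the label KO and 642 and 594 with the label WT, and they held 84.3% and 78.4% of the Id2 UMIs with the label KO at 893 and 678 CPM, and 58.4% and 65.1% with the label WT at 263 and 307 CPM. Without them the KO difference of Id2 in DN1-DN3 cells was 1.97 (adjusted p = 0.00560, SE 0.33), that of Tcf4 was called at 0.56 (adjusted p = 0.0237, SE 0.14), and Id2 was higher by 1.07 in the Kit class (adjusted p = 0.00407, SE 0.20), against 2.30 with them, and by 0.84 in the Ptcra class (adjusted p = 0.00323, SE 0.16), against 1.32 with them. Id1, unlike Id2, was concentrated in the Ptcra class of the libraries labelled KO, which held 53.5% and 61.8% of its UMIs.

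Shares of cells with an Id2 UMI in the Kit and Ptcra classes are given here beside those of cells with B cell markers. In the 30 and 68 cells with B cell markers in DN1-DN3 libraries labelled KO, of 12314 and 11443 UMIs median depth, 23.3% and 14.7% had an Id2 UMI, at 58.0 and 22.0 CPM, and in the 11 and 6 such cells labelled WT 9.09% and 16.7%, at 11.9 and 23.5 CPM. The share in the Ptcra class, 25.6% and 22.0% with the label KO at median depths of 7163 and 6781 UMIs, and in the Kit class, 26.5% and 20.2%, lay near or somewhat above those of the B cell marked cells and are not read as shares of expressing cells. Cells labelled WT in the same droplet runs had an Id2 UMI in 18% and 13% of the Ptcra class. Depths differ between these cells, so levels are given as well. Id2 in the Ptcra class was at 67.2 and 44.9 CPM with the label KO and 25.6 and 18.7 CPM with the label WT. The part of free RNA in the Id2 difference of these classes was not tested. For the γδ T shares no background value is given, since the few cells with B cell markers there held much Id2 themselves, 7 and 29 splenic cells labelled KO at 705 and 936 CPM against 108 and 348 CPM with the label WT, and 4 and 5 thymic γδ T cells labelled KO at 299.5 and 63.6 CPM against 61.5 and 47.5 CPM.

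**Figure D4:**
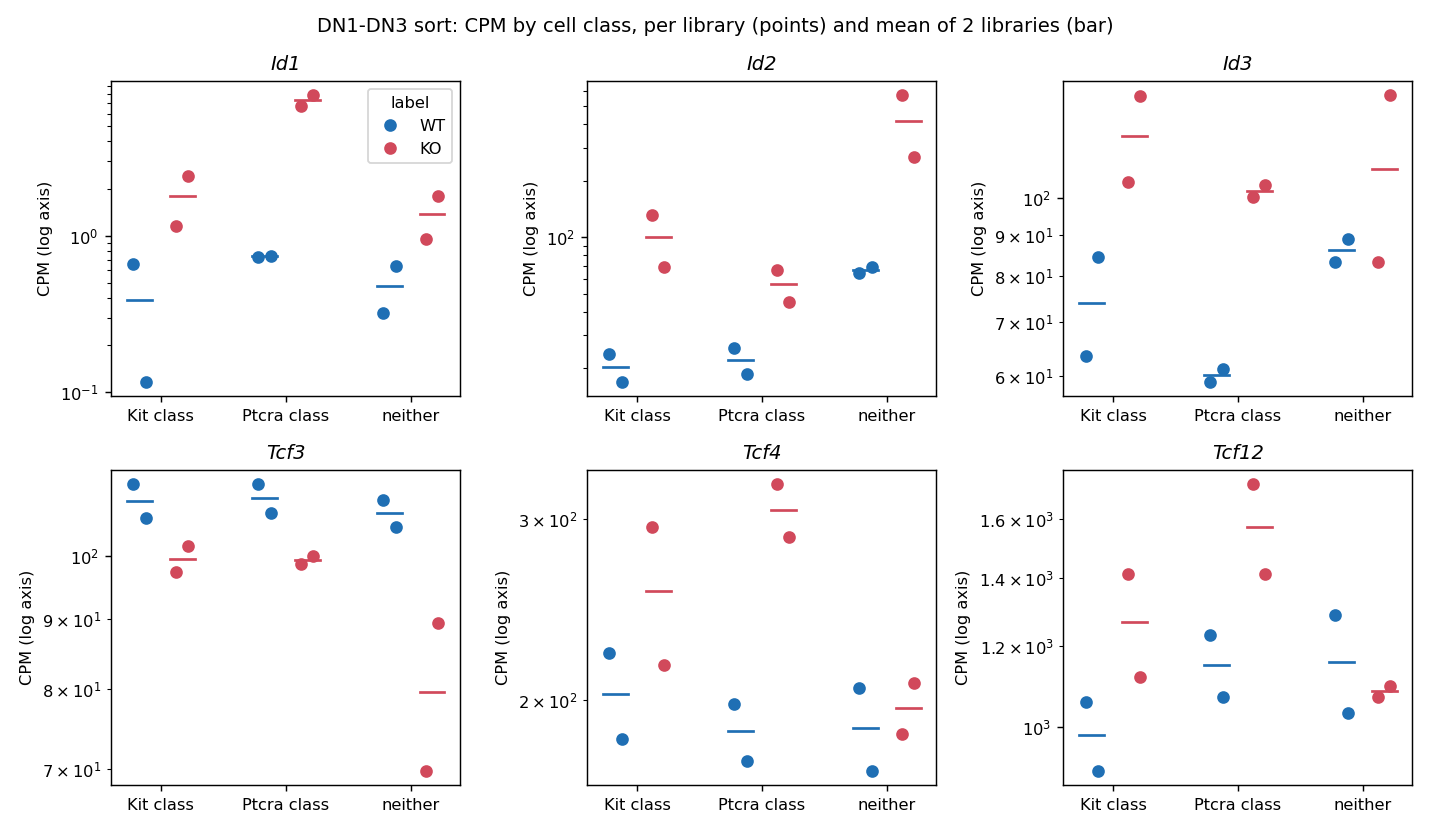
Level of each gene in CPM on a log axis in the Kit class, the Ptcra class and the cells of neither class of the DN1-DN3 sort, by genotype label. Points are libraries and bars the mean of 2 libraries. Id1 stands at 6.73 and 7.87 CPM in the Ptcra class labelled KO, and Id2 is highest in cells of neither class labelled KO, at 569 and 266 CPM.

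The makeup of the γδ T sorts moved with genotype, so the members were also compared within cells called for 1 variable gene of the γ chain. Cells whose leading Trgv gene was Trgv6 were 43.8% and 39.5% of splenic cells labelled KO (3422 and 4613 cells) and 2.40% and 2.05% of those labelled WT (188 and 229 cells). Trgv1 led in 172 and 264 cells labelled KO and 674 and 1059 labelled WT. Reads can be shared between Trgv genes, so that calls are uncertain to that extent.

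Trgv6-called cells labelled WT had more Id2 and less Tcf3, Tcf4 and Tcf12 than Trgv1-called cells labelled WT. Id2 was at 993 and 794 CPM in Trgv6-called and at 264 and 189 CPM in Trgv1-called cells labelled WT, against 1388 and 1021 CPM and 1298 and 1034 CPM with the label KO. Tcf12 was at 287 and 400.5 CPM in Trgv6-called and 590.2 and 682 CPM in Trgv1-called cells labelled WT, and at 246 to 295 CPM in both calls labelled KO. Between Trgv6-called and Trgv1-called cells labelled WT 23.6% of 10266 genes and 4 of 5 members tested were called (Id1 was too low to be tested), Id2 higher by 2.04 (adjusted p = 0.000239, SE 0.24) and Tcf4 (−1.56, SE 0.23), Tcf12 (−0.83, SE 0.14) and Tcf3 (−0.58, SE 0.18, adjusted p = 0.0354) lower. The call of Tcf3 was lost without splenic WT replicate 1 (−0.29, adjusted p = 0.455). With the label KO 0.039% of genes and none of the members were called, with 1 member, Id3, at an unadjusted p under 0.05 and called by DESeq2 (−2.26, adjusted p = 7.72e-05). The calls thus separated few genes in cells labelled KO, and whether the Trgv1-called cells are the same kind of cell with both labels was not tested.

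Id3 was lower with the label KO in both calls. In Trgv1-called cells 37.3% of genes and all 5 members tested were called between KO and WT, namely Id2 (2.38, SE 0.25, adjusted p = 4.26e-05), Id3 (−2.67, SE 0.53, adjusted p = 0.0146), Tcf3 (−0.60, SE 0.19, adjusted p = 0.0201), Tcf4 (−1.27, SE 0.22, adjusted p = 0.000426) and Tcf12 (−1.15, SE 0.14, adjusted p = 1.71e-05). Id3 was at 47.9 and 41.4 CPM with the label KO and 277 and 289 CPM with the label WT. Trgv1-called cells labelled KO were hardly set apart from Trgv6-called cells labelled KO (0.039% of genes called). Whether the Trgv1 call holds the same kind of cell with both labels was not tested. In Trgv6-called cells 14.4% of genes and 2 members were called, Id3 (−3.24, SE 0.54, adjusted p = 0.0187) and Tcf12 (−0.45, SE 0.14, adjusted p = 0.0418). There Id3 was at 6.17 and 12.7 CPM with the label KO and at 46.0 and 125 CPM with the label WT. Id2 differed by 0.38 in these cells (adjusted p = 0.358, SE 0.23), a difference that was called with the pool as a block (0.37, SE 0.08, adjusted p = 0.00639). Neither Trgv6 call stood without splenic KO replicate 1 (−2.86, adjusted p = 0.0653 for Id3, and −0.40, adjusted p = 0.245 for Tcf12) or WT replicate 2 (−2.35, adjusted p = 0.122, and −0.22, adjusted p = 0.406), and Tcf12 was also lost without KO replicate 2 (−0.49, adjusted p = 0.139). Without 1 library Id3 thus ran from −3.82 to −2.35 and Tcf12 from −0.64 to −0.22, while in Trgv1-called cells 3 members stayed without KO replicate 2, Id2, Tcf4 and Tcf12.

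The KO effect itself differed between the calls for 9.93% of genes and for 3 members. It was smaller in Trgv6-called cells by a difference of −2.0 for Id2 (adjusted p = 0.00407, SE 0.33). For Tcf4 the difference was 1.47 (adjusted p = 0.00954, SE 0.33), between −1.27 in Trgv1-called cells and 0.20 in Trgv6-called cells, the latter not called (adjusted p = 0.680), and for Tcf12 it was 0.70 (adjusted p = 0.0371, SE 0.20), between −1.15 and −0.45. Each of these differences is the gap between the calls with the label KO less the gap with the label WT. With the label KO 0.039% of genes were called between the calls. The differences thus largely mirror, with the sign turned, the gaps between the calls labelled WT. For Id3 the difference of −0.57 was not called (adjusted p = 0.748, SE 0.77). Without splenic KO replicate 1 or WT replicate 1 only that of Id2 was called, and without KO replicate 2 that of Tcf12 was lost (adjusted p = 0.234).

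Thymic γδ T cells were split by Cd24a, which is high in immature γδ thymocytes. Cells with at least 2 Cd24a UMIs numbered 160 and 115 with the label KO, 2.35% and 1.51% of the library, and 599 and 801 with the label WT, 8.79% and 10.1%. Cells with no Cd24a UMI made up 93.5% and 95.3% against 79.2% and 75.7%. The former were deeper, with medians of 12798 to 17008 UMIs against 5617 to 6118 UMIs.

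In cells with at least 2 Cd24a UMIs, Id3 and Tcf12 were not called between genotypes. Id3 was at 505 and 438 CPM with the label KO and 459 and 381 CPM with the label WT, which overlap, and Tcf12 at 993 and 856 CPM against 740.2 and 799 CPM. Id2 was at 59.5 and 67.1 CPM against 29.8 and 26.2 CPM. Of 13627 genes 6.36% were called and 2 members, Id2 higher by 1.16 (adjusted p = 0.000921, SE 0.12) and Tcf3 lower (−0.36, SE 0.09, adjusted p = 0.0359). Without any 1 of the 4 libraries the call of Tcf3 was lost, and neither gene was called at a limit of 4 Cd24a UMIs. The Id2 difference lay between 1.07 and 1.26 in all alternative settings. The differences were 0.16 for Id3 (adjusted p = 0.726, SE 0.21) and 0.25 for Tcf12 (adjusted p = 0.166, SE 0.10).

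In cells without a Cd24a UMI the genotypes stood apart. Id3 was at 152 and 91.4 CPM with the label KO and 560.3 and 612 CPM with the label WT, Id2 at 909.6 and 815 CPM against 129 and 144 CPM, and Tcf4 at 43.3 and 29.1 CPM against 146 and 135 CPM. There 54.0% of genes were called and 5 members, Id2 (2.81, SE 0.09), Id3 (−2.13, SE 0.21), Tcf4 (−1.81, SE 0.14), Tcf12 (−1.09, SE 0.10) and Tcf3 (−0.84, SE 0.07), with adjusted p between 1.81e-08 and 0.000127, but not Id1 (−1.30, SE 0.53, adjusted p = 0.0625). The KO effect in these cells differed from that in cells with at least 2 for 25.0% of genes and 5 members, by 1.64 for Id2 (adjusted p = 9.61e-05, SE 0.14), −2.28 for Id3 (adjusted p = 0.00199, SE 0.30), −2.14 for Tcf4 (adjusted p = 0.000289, SE 0.21), −1.35 for Tcf12 (adjusted p = 0.000201, SE 0.14) and −0.48 for Tcf3 (adjusted p = 0.0116, SE 0.11). That of Tcf3 was lost without KO replicate 1 or either WT library (adjusted p of 0.0757 to 0.134).

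The Cd24a classes were also compared within each genotype. With the label WT 48.6% of genes and 3 members were called, Id2 (2.20, SE 0.10, adjusted p = 4.91e-06) and Tcf12 (0.37, SE 0.10, adjusted p = 0.0103) higher in cells without a Cd24a UMI and Tcf3 lower (−0.37, SE 0.07, adjusted p = 0.00180). The calls of Tcf12 and Tcf3 were lost without WT replicate 1, and that of Tcf3 also without WT replicate 2. Id3 was 0.39 higher in cells without a Cd24a UMI (adjusted p = 0.157, SE 0.21), and called with the library as a block (0.40, SE 0.12, adjusted p = 0.0231). With the label KO 51.0% of genes and 5 members were called, Id2 higher by 3.84 (adjusted p = 1.06e-07, SE 0.11) and Id3 (−1.89, SE 0.22, adjusted p = 0.000303), Tcf4 (−2.05, SE 0.16), Tcf12 (−0.98, SE 0.10) and Tcf3 (−0.85, SE 0.09) lower, the last 3 with adjusted p between 1.21e-05 and 2.8e-05.

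**Figure D5:**
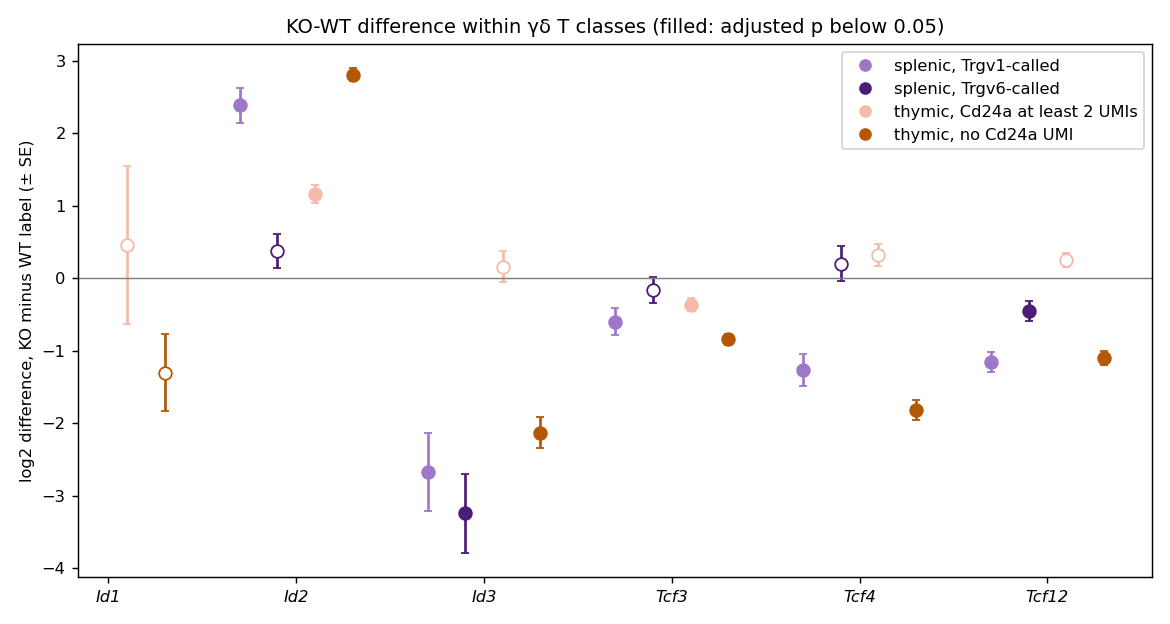
Log2 difference between the libraries labelled KO and WT with its approximate standard error (SE) in 4 classes of γδ T cells. Filled points have an adjusted p below 0.05, and Id1 was too low to be tested in the splenic classes. Id2 is 2.38 in Trgv1-called and 0.38 in Trgv6-called splenic cells, and Id3 is 0.16 in thymic cells with at least 2 Cd24a UMIs and −2.13 in those without a Cd24a UMI.

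Trgv6 was also frequent in the thymic libraries labelled KO, at 2028 and 2691 cells against 41 and 57 cells labelled WT, so that genotype and makeup moved together there as well. In thymic Trgv6-called cells Id2 was at 1079 and 891 CPM with the label KO and 301.1 and 467 CPM with the label WT, and Id3 at 32.4 and 24.0 CPM against 305 and 208 CPM. In thymic Trgv2-called cells Id2 was at 631 and 602 CPM against 82.9 and 83.2 CPM, and Id3 at 302.2 and 241 CPM against 516 and 545 CPM. The direction of these differences, which were not tested, was that of the whole sort. The paper found its thymic Trgv6 cluster in KO mice only. Whether the few cells called Trgv6 with the label WT are of that kind was not tested.

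The genes around the Id and E protein axis were counted by list, and each count stands against the 54.8% of all genes called in spleen, 49.7% in thymic γδ T cells and 23.0% in DN1-DN3 cells. The Egr list (Egr1, Egr2, Egr3, Nab1, Nab2 and Nr4a1) holds the Egr factors, which relay receptor signals to Id3, and other genes. Its median is therefore not a measure of Egr activity. In spleen all 6 were called lower with the label KO, with a median of −2.07 against 0.00 for all genes. The largest fall was that of Egr3 (−3.69). In splenic Trgv1-called cells all 6 were called lower (median −2.11, 37.3% of all genes called). In splenic Trgv6-called cells 1 was (median −0.75, 14.4% of all genes called). In thymic γδ T cells Nr4a1 (−1.92) and Nab2 (−0.81) were called lower, with a list median of −0.80, and in DN1-DN3 cells Egr1 (1.21), Egr2 (1.72), Egr3 (2.56) and Nab2 (1.44) were called higher, with a median of 1.32 against −0.02 for all genes. In DN1-DN3 cells KO replicate 1 carried most of this, with Egr1 at 20.3 and 7.75 CPM against 5.91 and 6.02 CPM and Egr3 at 9.86 and 2.91 CPM against 0.728 and 1.36 CPM. Without it Egr1 (0.42, adjusted p = 0.354), Egr2 (1.33, adjusted p = 0.129) and Egr3 (1.51, adjusted p = 0.0869) lost the call and Nab2 stood at 0.86 (adjusted p = 0.0224), and without WT replicate 1 none of the 4 was called (adjusted p from 0.0559 to 0.157). The splenic call of Egr1 was lost without KO or WT replicate 2 (adjusted p = 0.0765 and 0.0619), and the thymic γδ T call of Nab2 without any 1 of the 4 libraries (adjusted p from 0.0631 to 0.174). In the Ptcra class, where 14.7% of all genes were called, none of the 5 tested was called by edgeR, and in the Kit class, with 8.92% of all genes, 1 was, and nothing is read from these counts.

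Of the BMP and TGF-beta list all 13 genes were tested. In spleen 4 were called higher and 7 lower (median −0.45), in thymic γδ T cells 2 higher and 3 lower (median 0.05) and in DN1-DN3 cells 8 higher and 1 lower (median 0.58), where 54.8%, 49.7% and 23.0% of all genes were called. Bmpr1a, a type I BMP receptor, was higher with the label KO by 3.13, 4.48 and 1.95 in spleen, thymic γδ T and DN1-DN3 cells, and Acvr1, another, by 2.18, 2.59 and 2.93. Bmpr1a stood at 54.6 and 59.9 CPM against 8.05 and 5.95 CPM in spleen. Smad1 of the same list went the other way in spleen, at 7.19 to 9.55 CPM against 27.1 to 27.3 CPM. Id1 itself was not called in either γδ T sort. In the Ptcra class 6 of 13 were called, all higher (median 0.49 against −0.01 for all genes), where 14.7% of all genes were called. The part of these genes in the Id1 differences was not tested.

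Known E protein targets, Gfi1 among them, were called in both directions. Of 15 genes, 3 were called higher and 5 lower in spleen, 4 higher and 8 lower in thymic γδ T cells (median −1.09) and 4 higher and 2 lower in DN1-DN3 cells (median 0.22), against 54.8%, 49.7% and 23.0% of all genes. No splenic median is given, since Rag1 had no UMI in the 4 splenic libraries, Rag2 none in those labelled WT and Cd4 none in those labelled KO. Lower with the label KO in spleen and thymic γδ T cells were Lck, a kinase of T cell receptor signalling (−4.57 and −1.54), and Tcf7, a T lineage factor (−3.75 and −1.36). In DN1-DN3 cells Cdkn1a, a cell cycle inhibitor, fell by 2.10, and Rag1 (0.38) and Ptcra (0.22) were not called.

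Among partners and cofactors of helix-loop-helix factors, 10 of 12 were tested. Msc, a repressor that can pair with E proteins, was called higher with the label KO in both γδ T sorts, at 30.1 and 32.6 CPM against 1.43 and 1.56 CPM in spleen, 5.83 and 1.81 CPM against 0.0848 and 0.0140 CPM in thymic γδ T cells. In DN1-DN3 cells it stood at 0.536 and 0.142 CPM against 0 and 0.0161 CPM, too near 0 for a fold to be read. Bhlhe40, a repressor of the same class, was higher by 2.40 and 3.60 in the γδ T sorts. Cbfa2t3, a corepressor that binds E proteins, fell by 2.99 and 1.82 in the γδ T sorts, the splenic value lying between −3.63 and −2.34 without 1 library. Of the list, 3 were called higher and 2 lower in spleen (median −0.90), 3 and 1 in thymic γδ T cells (median −0.52), and 1, which was Msc, and 0 in DN1-DN3 cells (median −0.13). These are near or below the shares of all genes called, and the medians include Lyl1 and Bhlhe41, which had few UMIs in the γδ T sorts. Of 9 innate lymphoid genes 7 were called higher and none lower in DN1-DN3 cells (median 2.72), among them Il18r1 (3.58), Zbtb16, the PLZF gene (3.38), and Rora (3.38), which without DN1-DN3 KO replicate 1 were 2.52, 2.48 and 2.30 and still called, with 3 higher and 4 lower in spleen (median −0.50) and 4 higher and 1 lower in thymic γδ T cells (median 1.26).

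Genes with the most similar pattern over the 12 libraries, among 6723 others with a mean of at least 20 CPM, were for Id2 the chemokine receptors Cxcr6 (Pearson r = 0.996) and Ccr2 (r = 0.996) and Rnf43 (r = 0.995), for Id3 Sox5 (r = 0.982), Basp1 and Cnot6l, for Tcf12 Yeats2 (r = 0.994), Kansl1l and Epcam, for Tcf3 Dot1l (r = 0.991), Pole2 and Lin9, for Tcf4 Eefsec (r = 0.982), Idh2 and Nr6a1os, and for Id1 Tmem186 (r = 0.924), Ighg2b and Ube2q2. Among the members Tcf4 and Tcf12 were closest (r = 0.970), and Id2 and Tcf3 the most opposed (r = −0.957). The 12 points share compartment and genotype, so these values are descriptions of log2 CPM without a test.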

How the data were processed

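The authors aligned and counted 10x Genomics 3′ libraries and assigned cells to a genotype with hashsolo, and per the submitters' processing notes used Cell Ranger 8.0.1 and the genome build GRCm39. Each matrix the authors deposited has genes by cells and holds whole, unnormalized UMI counts. Whether intronic reads were counted is not given in the sources used here. Barcodes under 500 UMIs or 200 genes, or over 20% mitochondrial, were dropped, and tests excluded 9548 genes by name (ribosomal, mitochondrial or with a Gm identifier), after the study's own limits. Doublets were not called again. Genotype was read from the hashtag labels, and the own tag led in at least 99.6% of the cells of every library.

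Counts were summed per library or per class of cells and tested with edgeR 4.0.16 (quasi-likelihood F test, robust, TMM, default filter on low counts, R 4.3.3, limma 3.58.1), two-sided, with Benjamini-Hochberg adjustment over all genes tested and a threshold of 0.05. SE is an approximate standard error, the size of the log2 difference divided by the square root of its F statistic. Whole sorts were contrasts in 1 fit of 12 libraries and classes in fits of 8 sums. Classes of the same library were paired only in the settings with the library as a block. Thymic sorts of the same animals were paired in no fit. The contrasts of the KO effect between Trgv calls and between Cd24a classes were added after the files were seen, as was the setting without cells with an Il2rb or Trac UMI. DESeq2 1.42.0 and other settings were alternatives. The scripts were tested on simulated data. Python 3.11.15 with numpy 2.4.6, pandas 2.3.3 and matplotlib 3.10.9 did the rest. For levels, all UMIs of a library are the denominator and the 2 library values are given.

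KO and WT libraries of 1 pool are 1 sample in the labels and share a droplet run, which pairs them. Their deviations from group means correlated at 0.263 in spleen, 0.0596 in thymic γδ T cells and 0.157 in DN1-DN3 cells. The members and gene lists were chosen with earlier results of these data known. All 6 members and Id4 were named whatever their values, and of each list at most 3 genes a comparison, those called with the largest differences. Others of the lists that are named (Bhlhe40 in spleen, Egr1, and Rag1 and Ptcra as not called, for example) were chosen after their values were seen. List genes beyond those named are given as counts only, and 1 item is not reported here.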

Additional observations from a re-analysis of the deposited data

Results flagged for a closer look

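Each result here is a KO effect that differed between compartments or classes by an interaction test in edgeR, and no explanation was tested. Between spleen and thymic γδ T cells it was the effect of Id3 (−2.46). Between thymic γδ T and DN1-DN3 cells it was Id1 (−3.50), Id3 (−2.19), Tcf3 (−0.52), Tcf4 (−1.69) and Tcf12 (−0.96). Between splenic Trgv6-called and Trgv1-called cells it was Id2 (−2.0), Tcf4 (1.47) and Tcf12 (0.70), which largely mirror the gap between calls labelled WT. Between thymic cells without a Cd24a UMI and those with at least 2 it was Id2 (1.64), Id3 (−2.28), Tcf3 (−0.48), Tcf4 (−2.14) and Tcf12 (−1.35). With the library as a block the KO effects of Id2 (−0.95) and Tcf4 (0.37) also differed between the Ptcra and Kit classes. With 2 libraries a group, single libraries were not tested as outliers.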

How the results depend on the processing

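Of 1762 refits of 139 member results, 1625 kept direction and call, 70 lost the call, 40 gained it and 27 changed sign, none of the last called before or after. Shares of all genes called in each setting are not given here, so the counts below show only how the calls of members moved. The number of members called changed by more than 1.5 times as follows. With the pool or library as a replicate block it was 2 for Ptcra against Kit class with the label WT (0 before), 4 with the label KO (1 before), 5 for KO against WT in the Kit class (2 before) and 2 for the difference between classes (0 before), and the block changed no call beyond the 13 given in the report. With Kit at least 2 and Ptcra at least 4 it was 1 (WT) and 3 (KO), without the low-count filter 2 (KO) and 1 (difference), and with DESeq2 2 (KO) and, for Trgv6 against Trgv1 with the label KO, 1 (0 before). With at least 2 UMIs of the leading Trgv gene it was 1 in Trgv6-called cells (2 before), and with Cd24a at least 4 it was 0 (2 before). Smaller changes were of 1 member. They came with the block in DN1-DN3 cells (3, 2 before), Trgv6-called cells (3, 2 before) and Cd24a with the label WT (4, 3 before), without Il2rb or Trac cells in DN1-DN3 cells (3, 2 before) and thymic γδ T against DN1-DN3 with the label WT (4, 3 before), and with other settings in further comparisons.

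Leaving out 1 library gave 1 to 2 (3 with all) for thymic γδ T against DN1-DN3 with the label WT and 5 to 6 (6) with the label KO, 2 to 5 (5) for spleen against thymus with the label WT, 4 to 6 (5) for the thymic γδ T minus DN1-DN3 difference, 2 to 3 (2) for DN1-DN3, 1 to 3 (2) for the Kit class, 2 to 5 (5) for the Ptcra class, 3 to 5 (5) for Trgv1-called, 0 to 2 (2) for Trgv6-called and 1 to 3 (3) for their difference, 3 to 5 (4) for Trgv6 against Trgv1 with the label WT, 1 to 4 (3) for Cd24a with the label WT, 1 to 1 (2) for Cd24a at least 2 and 4 to 5 (5) for the Cd24a difference. The other counts were equal to the full ones, leaving aside Ptcra against Kit class with the label KO. In that comparison Id1 lost its call without KO replicate 2.

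Sign changes among uncalled results, in log2, were these. Id1 in spleen against thymus, KO, was 0.019 with the excluded genes kept and 0.0022 with RLE. Between Ptcra and Kit class, at the stricter limits, Id2 was −0.094 and Id3 0.13 (WT), Tcf3 −0.014 (KO), and Id3 −0.40 and Tcf12 −0.041 (difference), Tcf3 was −0.0041 (KO) with cells of both classes kept, and Id2 0.059 (KO) without Il2rb or Trac cells. With at least 2 Trgv UMIs, Id2 was −0.057 and Tcf4 0.18 (Trgv6 against Trgv1, KO) and Tcf3 0.11 (Trgv6-called). Tcf4 was −0.034 between Cd24a classes, WT, at a limit of 4. Without 1 library the ranges were −0.86 to 0.45 (Id1, spleen), −0.061 to 1.11 (Id2, thymic γδ T minus DN1-DN3), −0.24 to 0.22 (Id1, spleen against thymus, KO), −0.55 to 1.85 (Id1) and −0.13 to 0.22 (Id3, both Ptcra minus Kit), −0.014 to 0.071 (Id2) and −0.28 to 0.12 (Tcf4, both Trgv6 against Trgv1, KO), −0.44 to 0.26 (Tcf3) and −0.020 to 0.42 (Tcf4, both Trgv6-called), −1.33 to 0.29 (Id3, Trgv6 minus Trgv1), and −0.16 to 0.30 (Id1) and −0.0020 to 0.18 (Tcf4, both Cd24a, WT). The cause was not tested. With 2 libraries a group, a lone library is assumed to vary like the others, and Id1 is limited by its counts.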
